A study of Mus musculus with 2 samples.

Results

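The mesenchyme of the lacrimal gland at embryonic day 16 (E16) is described here in 97 single cells. They were chosen by a rule on their own RNA, from 234 cells kept among 437 barcodes of the E16 library. A kept cell had at least 200 detected genes and under 50% haemoglobin transcripts. A mesenchymal cell had at least 0.3% of its UMIs (tags that mark the captured transcripts one by one) in Col1a1, Col1a2, Col3a1, Dcn, Lum and Pdgfra together, and more of these than of 8 epithelial genes. It also had at most 2 mural UMIs (Rgs5, Myh11, Cnn1), at most 1 endothelial UMI (Pecam1, Cdh5) and at most 2 myeloid UMIs (C1qa, C1qb, Ptprc). The 97 cells were 41.5% of the kept E16 cells (exact Clopper-Pearson interval 35.1 to 48.1%, for counting error only).

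Glands came from wild-type CD1 mice, an outbred strain, and were pooled and dissociated with enzymes before droplet barcoding. The other 137 kept E16 cells and 183 cells chosen by the same rule from a postnatal day 4 (P4) library served for comparison, out of 1124 barcodes in the series. Each stage was 1 library, so there was no replicate check and no test across samples, and stage and library cannot be told apart. The 97 E16 cells held 636478 UMIs, with 1943 to 12048 and a median of 6188 per cell, and the 183 P4 cells held 842030 UMIs with a median of 4331 per cell. The libraries shared 0 barcodes.

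Mesenchyme surrounds the epithelial buds of branching glands. Its cells lay down collagens and proteoglycans and secrete growth factors, among them Fgf10, which the mouse lacrimal gland needs to form. Around the eye much of it descends from the neural crest, which also gives rise to the glia of nerves.

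Because the rule used RNA of the same cells, the levels that follow describe the cells chosen and support nothing further. Just inside the 0.3% limit, the lowest 3 shares were 0.485, 0.516 and 0.545%, and the median share was 1.58%. Just outside were 2 cells with 0.226 and 0.294%, 4 cells with 2 to 3 endothelial UMIs and 9 cells with 3 to 16 mural UMIs. Dcn and Dlk1, were found in each of 92 cells. The other 5 cells were at or near 0 for both and carried glial genes, which goes against the name mesenchyme. They are described with the subclusters, and values without them are given where they matter.

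Markers of most other cell types were lower than in the other E16 cells. The 15 epithelial markers summed to 33 UMIs (51.8 CPM, UMIs per 1000000) in the 97 cells, with Cdh1, Krt5, Trp63 and Elf5 at 0, against 2606 CPM in the other E16 cells. Mast cell markers stood at 45.6 CPM, against 4799 CPM in the other E16 cells. Endothelial markers stood at 229 CPM, against 727 CPM in the other E16 cells, and mural markers at 280 CPM, against 2029 CPM in the other E16 cells. Glial markers stood at 393 CPM, against 494 CPM in the other E16 cells, and at 96.9 CPM without the 5 cells that carried glial genes. Not all lists were lower: lymphoid markers stood at 31.4 CPM, against 27.8 CPM in the other E16 cells. However, only 1 of the 9 lymphoid genes, Thy1, had UMIs in the 97 cells, 20 in all, and Cd3e, Cd79a and the rest were at 0. Neuronal markers stood at 137 CPM, against 30.003 CPM in the other E16 cells, and skeletal muscle markers at 62.8 CPM, against 28.9 CPM in the other E16 cells. These sums rested on 3 of 8 neuronal genes and 2 of 9 skeletal muscle genes, with Myod1, Myf5, Pax7 and Myog at 0. Macrophage markers stood at 66.0 CPM, against 476 CPM in the other E16 cells, and 34 of their 42 UMIs lay in 1 cell. Haemoglobin UMIs were found in 97 of 97 cells at a median of 0.2% of UMIs. Haemoglobin is made by red blood cells, and the part of free RNA in these and other levels was not tested. Scrublet called 2 doublets in the E16 library, none of them among the 97 cells, and 4 in the P4 library, all of them among its 183 cells.

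Among the 8 marker genes, Col3a1, a fibril collagen, was found in 97 of 97 cells. Its level ran from 5.15 to 155 UMIs per 10000 with a median of 38.9, and the sum over cells was 4412 CPM, against 418 CPM in the other E16 cells. Dcn, the proteoglycan decorin, had a median of 40.2 UMIs per 10000 and reached 173. Dlk1, an imprinted membrane protein of immature mesenchyme, had a median of 41.7 and reached 321. Both were found in 93 cells, and both were at 0 in 4 of the 5 glia-like cells. Lum, the proteoglycan lumican, was found in 91 cells at 1684 CPM, against 138 CPM in the other E16 cells.

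The remaining markers were sparser. Kera encodes keratocan, a proteoglycan best known from the corneal stroma, and lies at chr10:97606879-97613692 on mm10 (plus strand). It was found in 77 cells at 729 CPM, against 22.2 CPM in the other E16 cells, a ratio of 32.8 (95% counting interval 20.99 to 54.2). Crabp1, which binds retinoic acid in the cytoplasm, was found in 66 cells at 372 CPM, against 18.9 CPM in the other E16 cells. Agtr2, a receptor for angiotensin II, was found in 84 cells at 586 CPM, against 35.6 CPM in the other E16 cells. The chemokine gene Cxcl13, which attracts B cells, stood at 182 CPM in 23 cells, against 3.33 CPM in the other E16 cells. The homeobox gene Alx1, a regulator of craniofacial mesenchyme, stood at 253 CPM in 51 cells, against 10.0 CPM in the other E16 cells, although 33.5% of its UMIs came from 1 cell.

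**Figure D1:**
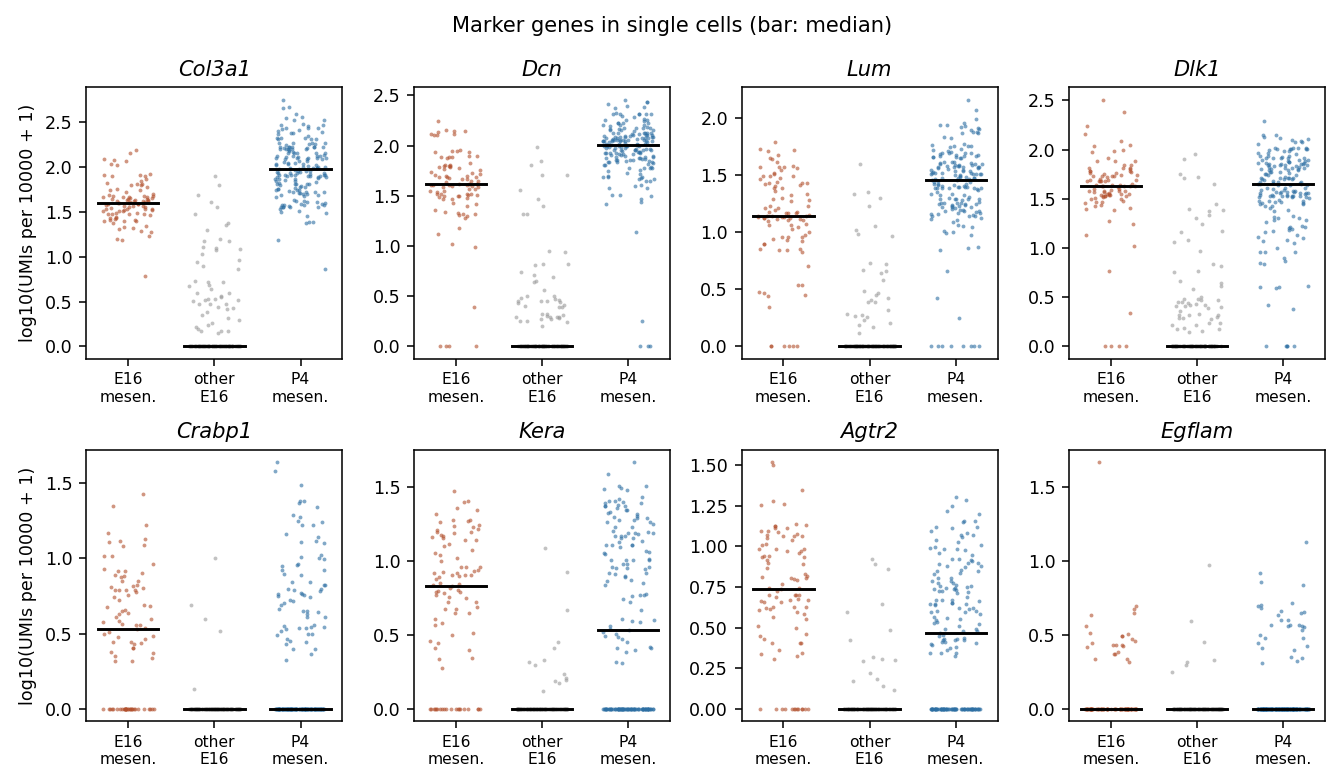
The plot gives 1 point per cell for the 8 marker genes, with log10(UMIs per 10000 + 1) on the vertical axis and E16 mesenchyme (97 cells), other E16 cells (137) and P4 mesenchyme (183) side by side; bars are medians. Col3a1, Dcn, Lum and Dlk1 fill nearly all E16 mesenchyme cells, Kera and Agtr2 most of them, and 43 of the 76 Egflam UMIs sit in 1 cell.

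Egflam, a matrix protein gene of the marker list, showed a pattern that recurred across the table. Its 76 UMIs lay in 24 cells, but 43 of them were in 1 cell and the second highest cell had 3. The genes counted had at least 30 UMIs and a UMI in at least 10% of the cells, so peaks of genes found in fewer cells were not counted. Of 3410 such genes, 243 (7.13%) had a highest cell with at least 20 UMIs and at least 5 times the second cell. These peaks were spread over 88 of the 97 cells, with at most 9 in a cell, and together held 9559 UMIs, 1.5% of the total. The P4 cells had 247 such genes of 3616 (6.83%). Of the 20 genes ranked most variable from the counts as deposited, 18 were of this kind, for example Nxph3 with 45 of 66 UMIs in 1 cell. Their cause was not tested. Levels of genes among cells are therefore also given with each gene's counts capped at that of the third highest cell, a step chosen after seeing the data.

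**Figure D2:**
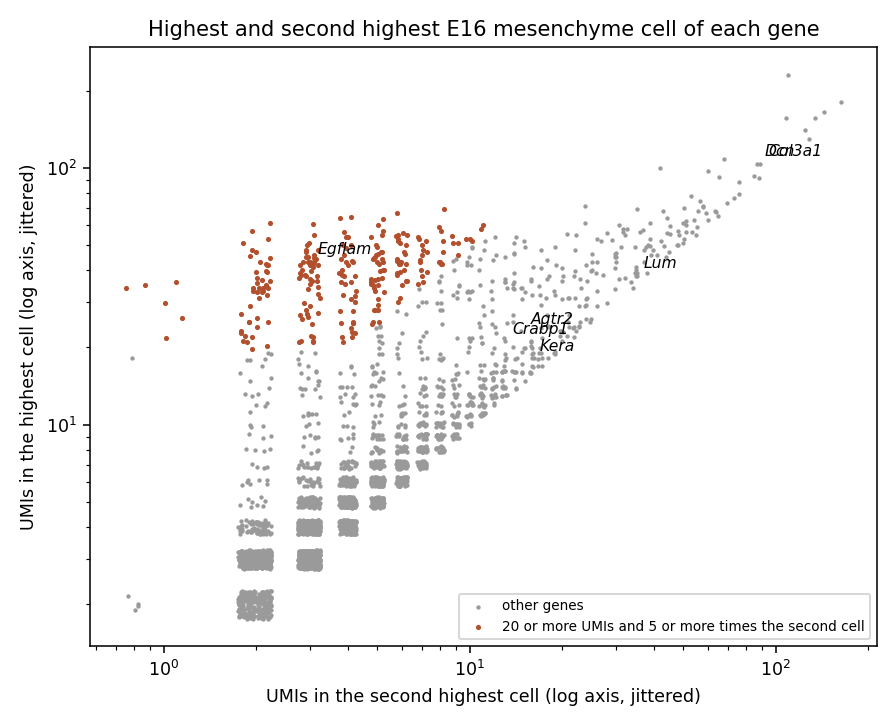
Each point is 1 of the genes with at least 30 UMIs in E16 mesenchyme, with its UMIs in the second highest cell on the horizontal axis and in the highest cell on the vertical axis, both logarithmic. Genes found in under 10% of the cells are shown only if they belong to a gene list. The 243 genes with a lone high cell (red-brown), Egflam among them, reach up to 69 UMIs at the left of the plot, while Col3a1, Dcn, Lum and Kera lie near the line of equal values.

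With counts capped, Itm2a was the most variable gene among the 97 cells. It encodes a small membrane protein and lies at chrX:107397099-107403376 on the minus strand of mm10. Its 1344 UMIs lay in 76 cells, with a median of 3.69 and a maximum of 406 UMIs per 10000. The next were Cdkn1c, an imprinted inhibitor of cyclin-dependent kinases, and Clec3b, which encodes the plasminogen-binding protein tetranectin. Cdkn1c was found in 97 cells at 8995 CPM, a median of 87.3 UMIs per 10000 and a maximum of 551. Clec3b had 91 UMIs in only 12 cells. Cdkn1c thus varied in level, and Clec3b in whether it was found at all.

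Genes that varied together were ranked by Pearson's r of depth-corrected residuals over the 97 cells. Such values share depth and library and are given as descriptions. The 97 include the 5 glia-like cells, in which Dlk1, Igf2 and Kera had 1 UMI each in all. Values of r without those cells were not computed, so the part these cells play in them was not tested. The partner most like Itm2a was Clec3b (r = 0.71), followed by the protease gene Htra3 (0.58), the heparan sulphate proteoglycan gene Gpc3 (0.57) and Cthrc1 (0.56). Dlk1 was most like Col3a1 (0.53) and the growth factor gene Igf2 (0.53), and least like the actin regulators Cfl1 (-0.52) and Cnn3 (-0.51). Kera was most like Gas1 (0.48), Gsta4 (0.45) and Cdo1 (0.43), with Alx1 (0.42) close behind, and Itm2a ran the other way (-0.26). Cxcl13 was most like Enpp2 (0.46), the enzyme autotaxin. Fos, an immediate early gene that enzyme digestion of tissue can induce, was most like Jun (0.57) and Egr1 (0.47), and least like Gpc3 (-0.34) and Dlk1 (-0.32).

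Presence in single cells was counted for some pairs, and no test of their overlap was made. Kera was found in 77 of the 97 E16 cells, Clec3b in 12 and Cxcl13 in 23. Kera and Clec3b were found together in 4 E16 cells, Kera alone in 73, Clec3b alone in 8 and neither in 12. In P4 mesenchyme they were found together in 73 cells, Kera alone in 32, Clec3b alone in 70 and neither in 8. Cxcl13 and Clec3b shared 0 E16 cells, with Cxcl13 alone in 23, Clec3b alone in 12 and neither in 62. In P4 mesenchyme 37 cells held both, 11 Cxcl13 alone, 106 Clec3b alone and 29 neither. Clec3b itself was found in 12 of 97 E16 cells and 143 of 183 P4 cells. Of the 23 E16 cells with Cxcl13, 22 also had Kera, and of the 51 with Alx1, 50 had Kera. The cells with Kera and those with Clec3b were of like depth, with medians of 6227 and 5905 UMIs.

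Clustering split the 97 cells into 5 subclusters of 36, 20, 19, 17 and 5 cells. The first, 37.1% of the cells (27.5 to 47.5%), had Kera in 36 of its 36 cells at 979 CPM, against 615 to 684 CPM in subclusters 2 to 4, although the highest Kera cell lay in subcluster 3. Alx1 was found in 28 of its cells at 465 CPM, but 54 of the 104 UMIs lay in 1 cell. Without that cell Alx1 stood at 229 CPM, against 199 CPM in subcluster 2. It held 92 of the 116 Cxcl13 UMIs, in 13 cells with 31 of them in 1 cell, and 99 of the 157 UMIs of Angptl4, a secreted inhibitor of lipoprotein lipase, in 26 cells. Cdkn1c was at 12525 CPM there, against 6073 to 10462 CPM in subclusters 2 to 4. Its leading genes after capping were Stmn2, Sema3d and Ocel1. Sema3d, a guidance cue, had 27 UMIs in 18 cells of it and 6 UMIs in 6 of the other 61 cells.

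Stmn2, a tubulin-binding protein best known from neurons, had 69 UMIs in 14 E16 cells, of which 9 cells and 53 UMIs belonged to subcluster 1. Of the 14 cells 13 had Kera, which 77 of all 97 cells had, and none had Clec3b, which 12 of all 97 cells had. The other neuronal markers were mostly absent: Elavl3, Elavl4, Prph and Nefm were at 0 in all 97 cells.

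Subcluster 3, 19 cells, had the highest Itm2a level. It held 926 of the 1344 Itm2a UMIs, at 8673 CPM, against 505 to 1437 CPM in the other subclusters. Its cells were of unlike level, with 9 at 75.5 to 406 UMIs per 10000 and 10 at 1.55 to 20.6. Subclusters 1, 2 and 4 each had 1 cell in the upper range, at 152, 145 and 124 UMIs per 10000. It held 73 of the 91 Clec3b UMIs in 8 cells. Ogn, the proteoglycan osteoglycin, had 23 UMIs there and 5 in the other members. Dpt, the matrix protein dermatopontin, had 37 of its 41 UMIs in this subcluster. Cxcl12, a chemokine of stromal cells, stood at 1096 CPM, against 166 to 290 CPM in subclusters 1, 2 and 4 and 0 UMIs in subcluster 5. The collagen, proteoglycan and elastic fibre lists were at their highest in subcluster 3. After capping, the fibrillar and network collagens summed to 18264 CPM, against 11461 to 12628 CPM in subclusters 1, 2 and 4. The small leucine-rich proteoglycans summed to 12354 CPM, against 7086 to 7816 CPM in subclusters 1, 2 and 4. The mature fibroblast genes, a list that includes Gsn, Mfap5, Pi16, Dpt and Ly6a, summed to 7278 CPM, against 2883 to 4123 CPM in the same 3 subclusters. In subcluster 3, before capping, Gsn stood at 3081 CPM and Mfap5 at 1086 CPM. Dpt, Ly6a and Pi16 stood at 347, 150 and 131 CPM there. These are UMIs of the cells that were clustered, so the differences describe the subcluster.

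Subcluster 4, 17 cells or 17.5% (10.6 to 26.6%), held most of the cells with many genes of cell division. Each had UMIs of 20 to 37 of the 37 genes of a G2/M list, and the 17 cells held 71.0% of all G2/M UMIs. At least 15 G2/M genes were also found in 2 of the 5 cells of subcluster 5, in 1 cell of subcluster 1 and in 1 of subcluster 2. Hist1h1b, a linker histone made in S phase, had 187 of its 211 UMIs there. Birc5, the gene of survivin, and the mitotic cyclin gene Ccnb1 were each found in 17 of the 17 cells. These cells were the deepest, with a median of 9039 UMIs, against 5258 to 8070 in the other subclusters, and depth raises the number of genes found. Dcn and Dlk1 were found in all 17, at 4957 and 3910 CPM.

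Subcluster 2, 20 cells, had few leading genes of its own after capping. Its list of S-phase genes summed to 4004 CPM, against 1249 to 3816 CPM in the other subclusters. The cyclin gene Ccne1 had 37 UMIs in 10 of its cells and 41 UMIs in 21 of the other 77 cells. The mechanosensitive channel gene Piezo2 had 23 UMIs in 12 of its cells and 26 UMIs in 18 of the other cells.

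Subcluster 5 held the 5 glia-like cells. Ednrb, an endothelin receptor of the neural crest, had 4, 7, 13, 14 and 18 UMIs in them and 0 in the other 92. Cryab, a small heat shock protein gene, had 7, 8, 12, 14 and 25 UMIs in them and 9 UMIs in the other 92. Sostdc1, a secreted antagonist of BMP and Wnt signals, had 115 of its 135 UMIs in these cells. The same cells passed the rule through collagens: Col1a1 had 9 to 39 UMIs in each, and Col1a2 14 to 20. Dcn, Lum, Dlk1 and Kera had 1 UMI each over the 5 cells, and Pdgfra and Agtr2 had 0. Cdkn1c stood at 744 CPM in them, against 9513 CPM in the other 92, and Igf2 at 26.6 CPM, against 1348 CPM. Without them, Dcn stood at 5068 CPM, Dlk1 at 5153 CPM and Kera at 773 CPM in the remaining 92 cells.

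**Figure D3:**
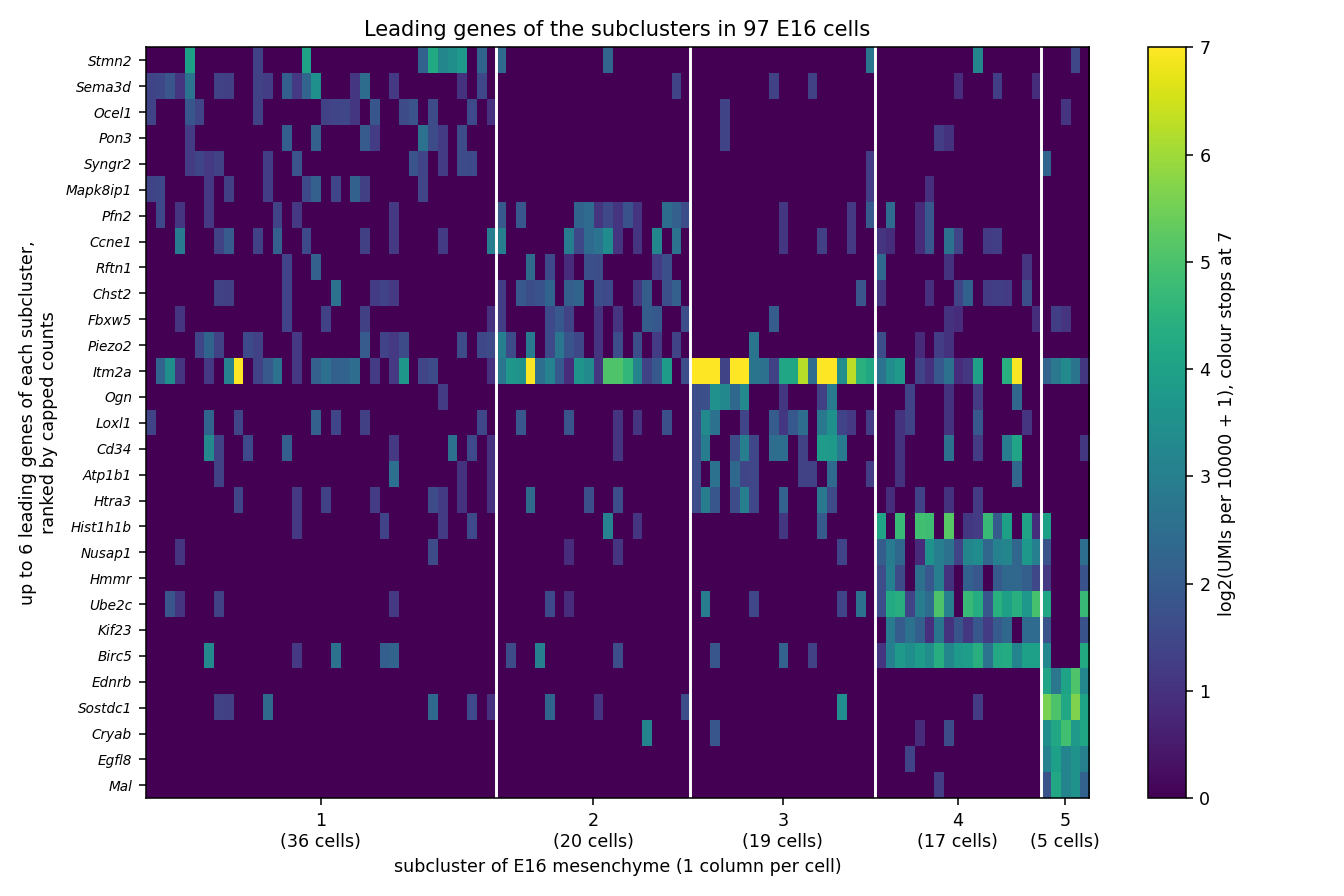
Columns are the 97 E16 mesenchyme cells in 5 subclusters and rows are up to 6 leading genes of each subcluster, ranked by capped counts, with colour for log2(UMIs per 10000 + 1). Itm2a is brightest in 9 of the 19 cells of subcluster 3, G2/M genes fill the 17 cells of subcluster 4, and Ednrb and Sostdc1 fill the 5 cells of subcluster 5, whereas subclusters 1 and 2 have only sparse leading genes.

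The subclusters depended on the settings. Under 8 other clustering settings, the 5 glia-like cells stayed together every time, and 15 to 17 of the 17 cells of subcluster 4 did. In 4 of the 8 settings, however, these groups fell into 1 cluster of 20 to 23 cells, and in the other 4 they were apart. Of the 19 cells of subcluster 3, 8 to 17 stayed together, of the 36 cells of subcluster 1, 15 to 33, and of the 20 cells of subcluster 2, 8 to 20. These groups also merged with others. At resolution 0.5, 9 cells of subcluster 3 shared a cluster of 42 with 33 of subcluster 1. Without cell cycle and histone genes, 8 of subcluster 3 shared a cluster of 38 with 30 of subcluster 1. The adjusted Rand index, which is 1 for equal groupings, ran from 0.30 to 0.80. The number of subclusters ran from 3 to 9.

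The E16 cells were then set against the 183 P4 cells. Of 5548 genes with at least 30 UMIs over both groups, 742 (13.4%) were at least 2-fold higher in E16 mesenchyme and 377 (6.80%) at least 2-fold lower, and the median log2 ratio of all genes was 0.19. With median-ratio scaling in place of totals, 526 were higher and 527 lower. With capped counts 654 were higher and 357 lower. With every cell thinned to 2596 UMIs, 3284 genes reached 30 UMIs, of which 332 (10.1%) were higher and 282 (8.59%) lower, and the median log2 ratio was 0.10. The cause of that shift was not tested. Counts of genes in the lists that follow stand beside the 13.4% higher and 6.80% lower over all genes. Ratios have 95% counting intervals, which leave out the spread between cells and between litters.

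Several matrix lists held more genes lower than higher in E16 mesenchyme. Of 14 measured fibrillar and network collagens, 7 were at least 2-fold lower and 0 higher, with a median log2 ratio of -1.04. Without Col1a1, Col1a2 and Col3a1, whose levels were part of the rule in both libraries, 4 of 11 were lower, with a median of -0.65. Col6a2, a microfibril collagen, stood at 288 CPM in E16 mesenchyme and 645 CPM in P4 mesenchyme. Col26a1 ran the other way, at 174 CPM in E16 mesenchyme and 92.6 CPM in P4 mesenchyme. Of 9 small leucine-rich proteoglycans, 4 were at least 2-fold lower and 0 higher, and without Dcn and Lum, which the rule used, 3 of 7 were lower. Aspn, the proteoglycan asporin, stood at 190 CPM in E16 mesenchyme and 457 CPM in P4 mesenchyme. Kera did not differ by 2-fold, at 729 CPM in E16 mesenchyme and 709 CPM in P4 mesenchyme.

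Of 22 collagen processing genes 5 were lower and 2 higher, of 10 basement membrane genes 2 were lower and 0 higher, and of 6 hyaluronan genes 2 were lower and 0 higher, with a median of 0.04. Elastic fibre genes had 6 of 12 at least 2-fold lower and 0 higher. Mfap5, a microfibril glycoprotein, had 271 UMIs in E16 mesenchyme and 2626 in P4 mesenchyme, and was 7.32-fold (6.46 to 8.33) higher in P4. Fbn1, the fibrillin gene, stood at 228 CPM in E16 mesenchyme and 600 CPM in P4 mesenchyme. Of 18 matricellular genes, 9 were lower and 2 higher. Postn, periostin, stood at 770 CPM in E16 mesenchyme and 2321 CPM in P4 mesenchyme, and Fn1, fibronectin, at 280 CPM in E16 mesenchyme and 920 CPM in P4 mesenchyme. Smoc2, a calcium-binding matrix protein, was higher at 273 CPM in E16 mesenchyme, against 103 CPM in P4 mesenchyme. Of 18 matrix proteases and inhibitors 7 were lower and 2 higher, with Mmp2, a gelatinase, at 70.7 CPM in E16 mesenchyme and 303 CPM in P4 mesenchyme. Mmp16, a membrane-bound protease, stood at 64.4 CPM in E16 mesenchyme and 20.2 CPM in P4 mesenchyme. Lox, which crosslinks collagen, was higher at 143 CPM in E16 mesenchyme, against 66.5 CPM in P4 mesenchyme, whereas its relative Loxl1 stood at 77.0 CPM in E16 mesenchyme and 428 CPM in P4 mesenchyme.

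The mature fibroblast genes had the lowest median of the lists other than tear gland secretory genes. Of 20 measured, 15 were at least 2-fold lower in E16 mesenchyme and 0 higher, with a median log2 ratio of -2.55. Ly6a, the surface protein Sca-1, had 21 UMIs in 4 E16 cells and 922 UMIs in 88 P4 cells, and was 33.2-fold (21.6 to 53.9) higher in P4. Clec3b had 91 UMIs in 12 E16 cells and 1207 in 143 P4 cells, 10.0-fold (8.10 to 12.5) higher in P4. Dpt had 41 UMIs in 9 E16 cells and 628 in 105 P4 cells, 11.6-fold (8.44 to 16.3) higher in P4. Pi16, a secreted peptidase inhibitor, had 26 UMIs in E16 mesenchyme and 322 in P4 mesenchyme, 9.36-fold (6.27 to 14.6) higher in P4. Gsn, the actin-severing protein gelsolin, differed less, at 1829 CPM in E16 mesenchyme and 3307 CPM in P4 mesenchyme. After thinning to 2596 UMIs per cell, Clec3b was found in 9.47% of 95 E16 cells and 73.2% of 157 P4 cells, and Dpt in 6.32% of E16 cells and 57.3% of P4 cells. Without thinning, Clec3b was found in 5.11% and Dpt in 1.46% of the other E16 cells, with a median of 5562 UMIs over all kept E16 cells. Ly6a, at 2.11% of E16 cells after thinning, lay below the 5.11% of the other E16 cells without thinning.

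The few E16 UMIs of such genes were not spread evenly. For the 15 genes ranked lowest in E16 mesenchyme relative to P4, a median of 51.4% of the E16 UMIs lay in subcluster 3, which held 16.8% of all UMIs. The range was 0 to 90.2%, with Dpt at the top. Ly6a had 16 of its 21 UMIs in 2 cells of subcluster 3, and Pi16 had 14 of 26 in 3 cells of it. Ccl7 was an exception, with 13 of 19 UMIs in subcluster 4. Because subcluster 3 was defined on the same counts, this describes it and is no separate evidence.

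Stromal chemokines were lower as well, with 7 of 9 at least 2-fold lower and 0 higher. Ccl7, which draws monocytes, had 19 UMIs in E16 mesenchyme and 651 in P4 mesenchyme, 25.9-fold (16.5 to 43.3) higher in P4. Ccl2 stood at 72.3 CPM in E16 mesenchyme and 372 CPM in P4 mesenchyme, and Cxcl12 at 377 CPM in E16 mesenchyme and 913 CPM in P4 mesenchyme. Cxcl13 stood apart, at 182 CPM in E16 mesenchyme and 202 CPM in P4 mesenchyme. Of 14 complement and defence genes 5 were lower and 0 higher. Serping1, an inhibitor of the first complement component, stood at 148 CPM in E16 mesenchyme and 695 CPM in P4 mesenchyme. Lpl, lipoprotein lipase, had 55 UMIs in E16 mesenchyme and 617 in P4 mesenchyme, and was 8.48-fold (6.43 to 11.4) higher in P4.

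**Figure D4:**
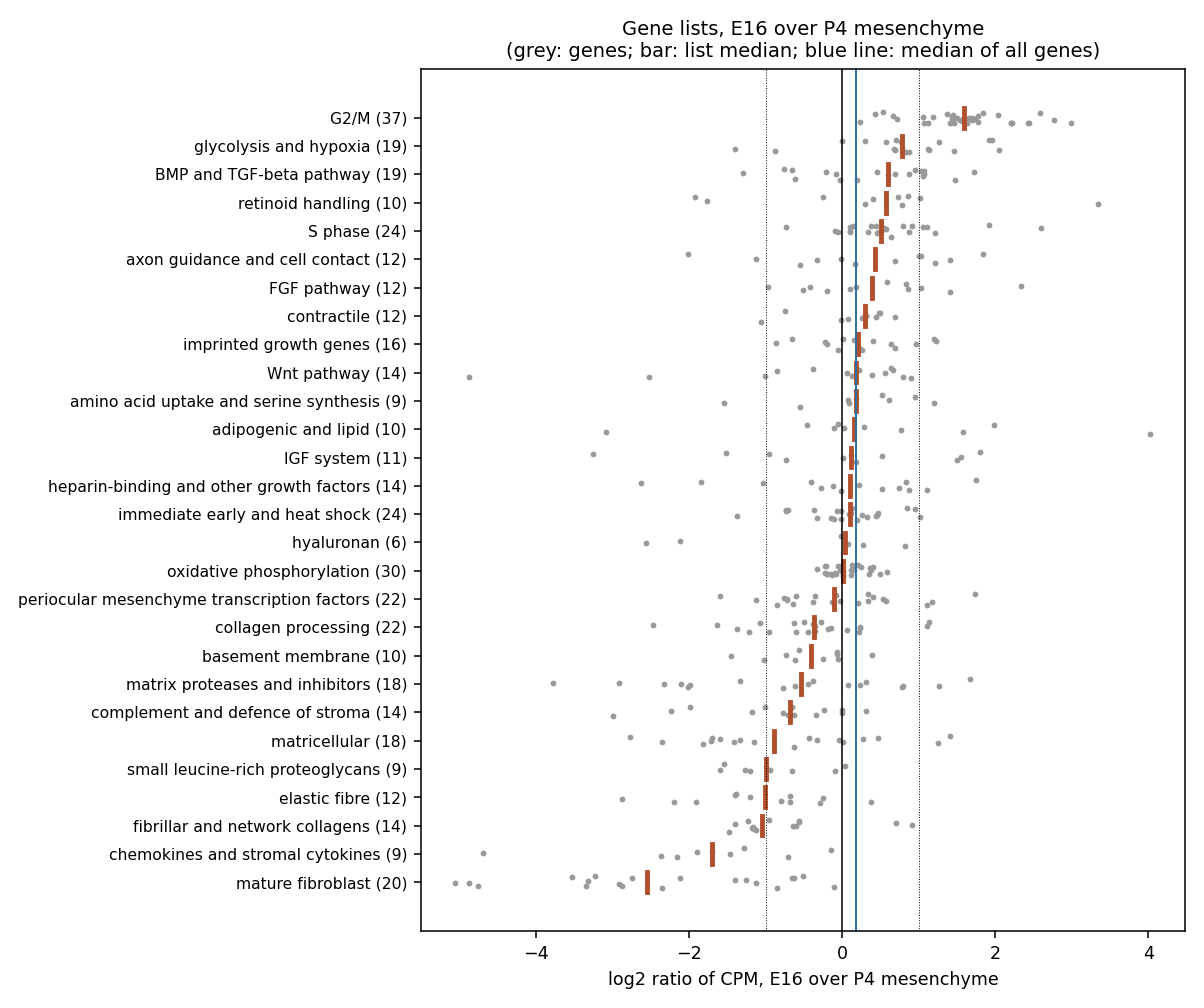
Each row is a gene list with the number of measured genes, grey points are single genes, red-brown bars are list medians and the blue line is the median of all genes, on a horizontal axis of the log2 ratio of CPM in E16 over P4 mesenchyme. The mature fibroblast (-2.55), chemokine (-1.70), collagen (-1.04) and proteoglycan (-0.99) lists lie to the left, the G2/M list (1.59) lies to the right, and the 30 oxidative phosphorylation genes gather at 0.01.

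Cell division genes were higher in E16 mesenchyme. Of 37 G2/M genes, 32 were at least 2-fold higher and 0 lower, with a median log2 ratio of 1.59. Top2a, a topoisomerase of dividing cells, had 172 UMIs in 31 E16 cells and 38 UMIs in 19 P4 cells, or 270 CPM in E16 mesenchyme and 45.1 CPM in P4 mesenchyme. Mki67 stood at 83.3 CPM in E16 mesenchyme and 17.8 CPM in P4 mesenchyme. Hist1h1b had 211 UMIs in E16 mesenchyme and 11 in P4 mesenchyme, 25.4-fold (13.9 to 51.6) higher in E16, although histone genes are near-identical copies and only partly polyadenylated. The S-phase list had 5 of 24 higher and 0 lower, with a median of 0.50. Its members Rrm2 and Dtl stood at 391 and 72.3 CPM in E16 mesenchyme and 103 and 11.9 CPM in P4 mesenchyme.

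Depth raises the number of G2/M genes found, and the E16 cells were deeper, with a median of 6188 UMIs, against 4331 in P4 mesenchyme. Counted without thinning, cells with at least 15 G2/M genes were 21 of 97 in E16 mesenchyme (21.6%, 13.9 to 31.2%) and 13 of 183 in P4 mesenchyme (7.10%, 3.84 to 11.8%). Leaving them out takes away G2/M UMIs by construction: 9 G2/M genes then had at least 30 UMIs, 2 of these were at least 2-fold higher in E16 mesenchyme, and the list median was 0.57. With every cell thinned to 2596 UMIs, at least 3 G2/M genes were found in 59 of 95 E16 cells (62.1%, 51.6 to 71.9%) and 53 of 157 P4 cells (33.8%, 26.4 to 41.7%). Shallower cells, 2 from E16 and 26 from P4, were left out of that count. Without thinning the shares were 84.5% in E16 mesenchyme and 52.5% in P4 mesenchyme.

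Other genes higher in E16 mesenchyme had no part in the division lists. Stmn2 had 69 UMIs in E16 mesenchyme and 0 in P4 mesenchyme. With P4 set to 3 UMIs over the group, Stmn2 was 30.4-fold (counting interval 24.1 upwards, without an upper limit) higher in E16. It was found in 8.42% of E16 cells after thinning, against 4.38% of the other E16 cells without thinning. Col11a1, a minor fibril collagen of cartilage and other embryonic tissue, had 73 UMIs in 39 E16 cells and 10 in 9 P4 cells, 9.66-fold (4.96 to 20.98) higher in E16. Stra6, a receptor for retinol-binding protein, had 46 UMIs in 34 E16 cells and 6 in 6 P4 cells, at 72.3 CPM in E16 mesenchyme and 7.13 CPM in P4 mesenchyme. Lmo7 had 49 UMIs in 33 E16 cells and 6 in 6 P4 cells. Emcn, a sialomucin known from endothelium, had 33 UMIs in 21 E16 cells and 3 in 3 P4 cells, a ratio of 14.6 (4.56 to 74.2). Of the 10 endothelial markers, Emcn among them, 9 had UMIs in E16 mesenchyme, 146 in all in 64 of 97 cells, and only Cldn5 was at 0. All 10 summed to 229 CPM in E16 mesenchyme and 257 CPM in P4 mesenchyme. The rule itself allowed at most 1 UMI of Pecam1 and Cdh5 in a cell.

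Of the 15 genes ranked highest in E16 mesenchyme over P4, 7 were genes with a lone high cell, such as Med1 with 35 of 47 UMIs in 1 cell. When counts were capped all of these but Gucy1a3 fell out, and Sostdc1, Ckap5 and Top2a were among those that took their places. Of the 135 Sostdc1 UMIs, 115 lay in the 5 glia-like cells. The first 15 genes by capped counts therefore mix histones and mitotic genes with Stmn2, Col11a1, Gucy1a3, Lmo7, Emcn, Stra6 and Trp53i11.

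**Figure D5:**
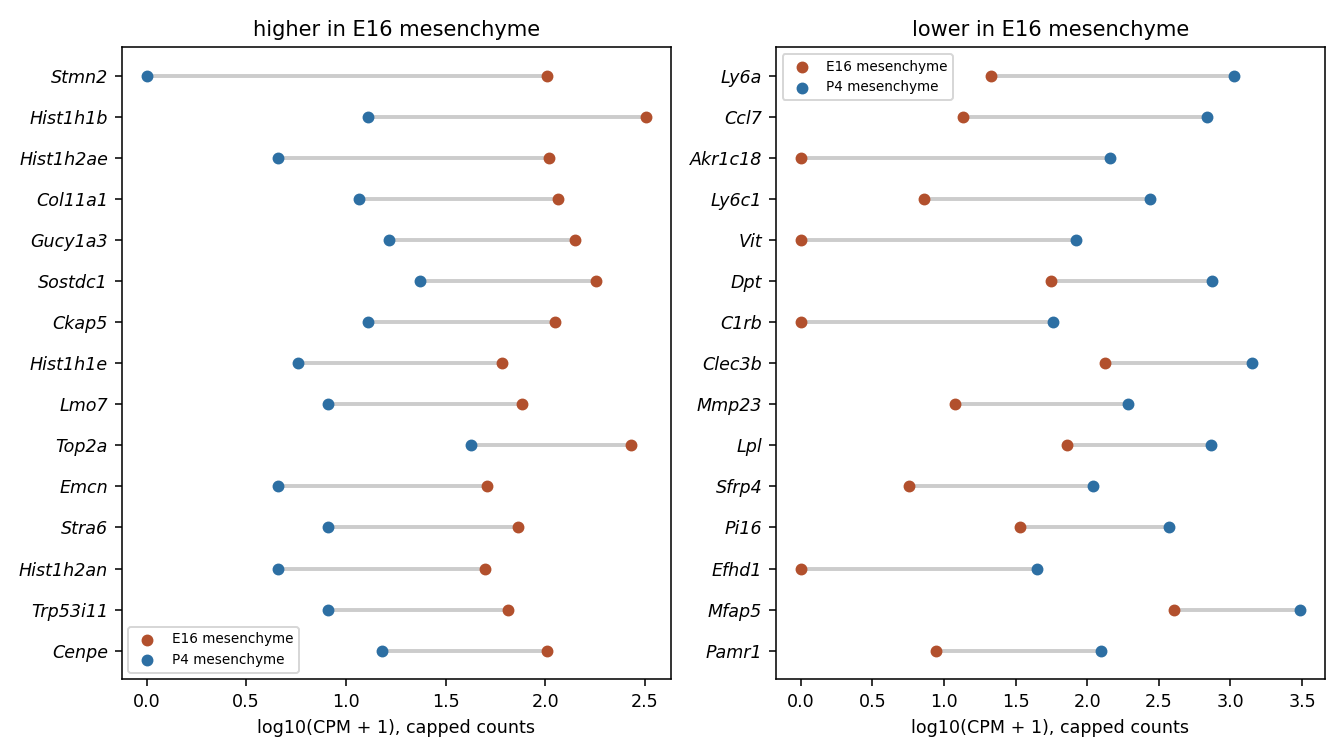
For the 15 genes ranked highest and the 15 ranked lowest in E16 mesenchyme over P4 mesenchyme by capped counts, points give log10(CPM + 1) of capped counts in E16 mesenchyme (red-brown) and P4 mesenchyme (blue), joined by a line. Stmn2 is at 0 in P4 mesenchyme, and Akr1c18, Vit, C1rb and Efhd1 are at 0 in E16 mesenchyme once capped.

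Signalling genes were counted by pathway. Of 12 measured FGF pathway genes 3 were at least 2-fold higher in E16 mesenchyme and 0 lower. Dusp6, a phosphatase induced by ERK signalling, had 69 UMIs in E16 mesenchyme and 18 in P4 mesenchyme, and the feedback gene Spry4 had 34 UMIs in E16 mesenchyme and 17 in P4 mesenchyme. Without cells with at least 15 G2/M genes, 3 of 11 FGF pathway genes were higher and 2 lower, and with capped counts 3 of 12 were higher and 2 lower. Fgf10 had 30 of the 636478 UMIs in E16 mesenchyme and 37 of the 842030 in P4 mesenchyme, and 16 of the 30 E16 UMIs lay in 1 cell. After thinning, Fgf10 was found in 7.37% of 95 E16 cells and 13.4% of 157 P4 cells. Of 19 BMP and TGF-beta genes 6 were higher and 1 lower, with the receptor Tgfbr1 at 47.1 CPM in E16 mesenchyme and 14.3 CPM in P4 mesenchyme. Without the 5 E16 cells and 2 P4 cells that carried at least 5 glial UMIs, 3 of 17 were higher and 2 lower. Of 12 axon guidance genes 5 were higher and 2 lower, with capped counts 3 higher and 2 lower, and the receptor Nrp1 stood at 383 CPM in E16 mesenchyme and 188 CPM in P4 mesenchyme. Of 14 Wnt genes 0 were higher and 3 lower, with the antagonist Sfrp4 at 3 UMIs in E16 mesenchyme and 116 in P4 mesenchyme, 29.2-fold (9.76 to 144) higher in P4.

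Among 11 insulin-like growth factor genes 3 were at least 2-fold higher and 2 lower. The binding protein gene Igfbp5 had 12 UMIs in E16 mesenchyme and 152 in P4 mesenchyme, and the RNA-binding protein gene Igf2bp3 had 42 UMIs in E16 mesenchyme and 16 in P4 mesenchyme. Igf2 itself stood at 1269 CPM in E16 mesenchyme and 1256 CPM in P4 mesenchyme. Of 16 imprinted growth genes 2 were higher, a share close to the 13.4% of all genes, Mest at 1412 CPM in E16 mesenchyme and 612 CPM in P4 mesenchyme and Peg10 at 187 CPM in E16 mesenchyme and 79.6 CPM in P4 mesenchyme, and 0 were lower. Glycolysis and hypoxia genes had 7 of 19 higher and 1 lower, with Pfkl at 135 CPM in E16 mesenchyme and 35.6 CPM in P4 mesenchyme. All 30 oxidative phosphorylation genes lay within 2-fold, with a median log2 ratio of 0.01. Of 22 periocular mesenchyme transcription factor genes 3 were higher (Alx1, Nr2f2 and Tcf4) and 2 lower (Foxp1 and Twist1), with a median of -0.11. These shares are close to those over all genes, and with capped counts 3 were higher and 0 lower. Alx1 was found in 33.7% of E16 cells and 16.6% of P4 cells after thinning.

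Secretory genes of the gland epithelium were at or near 0 in E16 mesenchyme, with 2 UMIs over the 97 cells, and summed to 1584 CPM in P4 mesenchyme, where 182 of 183 cells had some. All 8 measured ones were lower in E16 mesenchyme. The other P4 cells held 177024 CPM of them, and the part of RNA from those cells in the P4 mesenchyme values was not tested.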

How the data were processed

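Single-cell RNA was measured in 2 libraries of pooled CD1 lacrimal glands, 1 at E16 and 1 at P4, with 437 and 687 barcodes and 2234700 and 2712614 UMIs. The deposited files hold raw UMI counts of 27775 features as whole numbers. Cell Ranger and the mm10 build are named in the submitters' processing notes, without a version, and how barcodes were chosen was not stated there. Mitochondrial features had 0 UMIs.

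The members, gene lists and comparisons were chosen with earlier results of these data known. Cells were chosen in each library by the stated rule. Levels are UMIs summed over cells per 1000000 (CPM) or per 10000 in a cell, with exact conditional intervals for ratios and Clopper-Pearson intervals for shares, both at 95% and for counting error only. A gene at 0 was set to 3 counts over the group, 4.71 CPM in E16 and 3.56 CPM in P4. With 1 library per stage there was no test.

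Subclusters came from scanpy 1.11.5: counts scaled to 10000, logged, 1000 variable genes, 10 components, 15 neighbours, Leiden at resolution 1. Doublets were called with Scrublet as in scanpy and kept. Intervals were checked on simulated counts without spread between cells, and clustering on simulated cells of different kinds. Neither simulation had the lone high cells of the data, and cells of 1 kind alone were not clustered.

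Named genes were the 8 markers and the 6 genes of the rule, the 20 most variable, 10 leading genes per subcluster (20 CPM added), 15 against other E16 cells, 15 in each direction against P4 by the interval bound nearest 1, and up to 5 per list. They needed 30 UMIs, a UMI in 10% of cells and no level in other cells of their library over 3 times higher. Haemoglobin, ribosomal, mitochondrial, Xist, Y-linked and provisional genes were left out. Rankings from capped counts, the cells with at least 15 G2/M genes, the glial cells left out, lists without the genes of the rule, levels without the highest cell and named genes outside the rule were chosen after seeing values. Coordinates are from the GENCODE M21 annotation of mm10, in which 129 of 129 genes looked up matched. Alternatives covered filters, scalings, thresholds, thinning and clustering settings. Some genes are not reported here.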

Additional observations from a re-analysis of the deposited data

How the results depend on the processing

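No paired analysis was possible because each stage was 1 library. The share of E16 cells that were mesenchyme stayed within its counting interval under 6 alternatives. The count of genes at least 2-fold higher in E16 mesenchyme was 332 with cells thinned to 1 depth, 180 with at least 100 UMIs per gene and 1592 with at least 10. The count of lower genes was 163 with at least 100 UMIs and 716 with at least 10. With median-ratio scaling 526 were higher and 527 lower, so the excess of higher genes depended on the scaling. There were 3 subclusters at resolution 0.5 and 9 at resolution 1.5. The largest subcluster held 17.5% of cells at resolution 1.5, 23.7% with 500 variable genes, 25.3% with thinned cells and 25.8% with capped counts. The share of E16 mesenchyme with G2/M genes was 82.1% for at least 2 genes, 47.4% for at least 4 and 84.5% without thinning. Capped counts and the glial or dividing cells left out were alternatives chosen after seeing the data. Of the other values, 514 list medians and 540 gene ratios stayed close to those reported and 17 and 34 moved. The 540 include 38 ratios at the threshold of 10 UMIs and 25 at 100 UMIs. A threshold cannot change the ratio of a single gene, so these were the same by construction. Of 532 list medians 40, in 15 of 34 lists, took the other sign, and 39 of these were under 2-fold as reported. The exception was the mural marker list, with a median log2 ratio of 0.31 with at least 10 UMIs per gene and -1.06 as reported. The cause was not tested. At this depth, genes under 30 UMIs were not measured.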
